A study of Danio rerio with 4 samples.

Results

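Expression of 9 genes of pteridine and purine pigment metabolism was examined in whole eyes of zebrafish (Danio rerio) at 3.5 months after fertilisation. The genes were gch1, gch2, pts, xdh, gart, paics, atic, pnp4a and ltk. They were taken by name, each by the probe set whose only gene symbol in the array annotation is that name and, for gch1, which has 2 such probe sets, by the one with the higher mean. All 9 were found among 19260 genes with a single symbol. They were chosen by known role with the signals of these same 4 arrays, and so all 6 differences between them, in view. Every value below is therefore a description and none is a test.

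The 4 Affymetrix arrays held 1 RNA sample each from eyes of eys+/-; lrp5+/- fish (double heterozygotes below), eys-/- fish, lrp5-/- fish and wildtype fish. Each sample was of mixed sex and all fish were kept on a standard light and dark cycle. The gene eys encodes a matrix protein around photoreceptors and lrp5 a co-receptor of Wnt and Norrin signalling. The lesions of the mutant alleles, the number of fish behind an array and the time of day of sampling are not given in the sources used here.

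Zebrafish carry several kinds of pigment cell. Yellow to orange xanthophores hold pteridines, which are made from GTP, together with carotenoids, and silvery iridophores hold stacked crystals of guanine, so both draw on purines. In the eye, iridophores and xanthophores lie in the iris and around the globe, beside black melanophores and the retinal pigment epithelium. The same pteridine route also makes tetrahydrobiopterin, the cofactor of the enzymes that begin dopamine and serotonin synthesis, and every dividing or active cell makes purines.

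The values are log2 signals after RMA, and a difference of 1 is 2-fold. For a pair of arrays, a gene is called measured below if at least 1 of them reached 6.57, the median of all values of probe sets with 1 symbol, and calls were made for measured genes that differed by 2-fold or more. Each genotype has 1 array, so the variation among fish is unknown and there are no p-values. As a yardstick, the robust SD of the difference over all measured genes was 0.23 for the double heterozygote against wildtype, 0.20 for eys-/- against wildtype and 0.20 for lrp5-/- against wildtype. The arrays had median log2 signals of 5.03 to 5.06 and correlated with each other at 0.978 to 0.983. The probe set of lrp5 read 6.92 in the double heterozygote, 7.27 in eys-/-, 7.17 in lrp5-/- and 7.39 in wildtype eyes. Its position relative to the lesion is not given, and 0 probe sets carry the name eys, so neither gene checks the labels. Of the 9 pigment genes, 0 lie on the chromosome of eys and 0 on that of lrp5 in RefSeq's gene table.

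The pigment genes called against wildtype were gch2 and pnp4a, and nothing is read from their number. The pteridine gene gch2 was called higher in double heterozygote and in lrp5-/- eyes, 4.68-fold and 3.94-fold above wildtype. The guanine-pathway gene pnp4a was called higher in double heterozygote eyes, 2.19-fold above wildtype. The other pigment genes that passed the level filter, gch1, pts, paics and ltk, differed from wildtype by at most 0.37 on the log2 scale. The remaining 3, xdh, gart and atic, stayed below the filter on all 4 arrays.

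**Figure D1:**
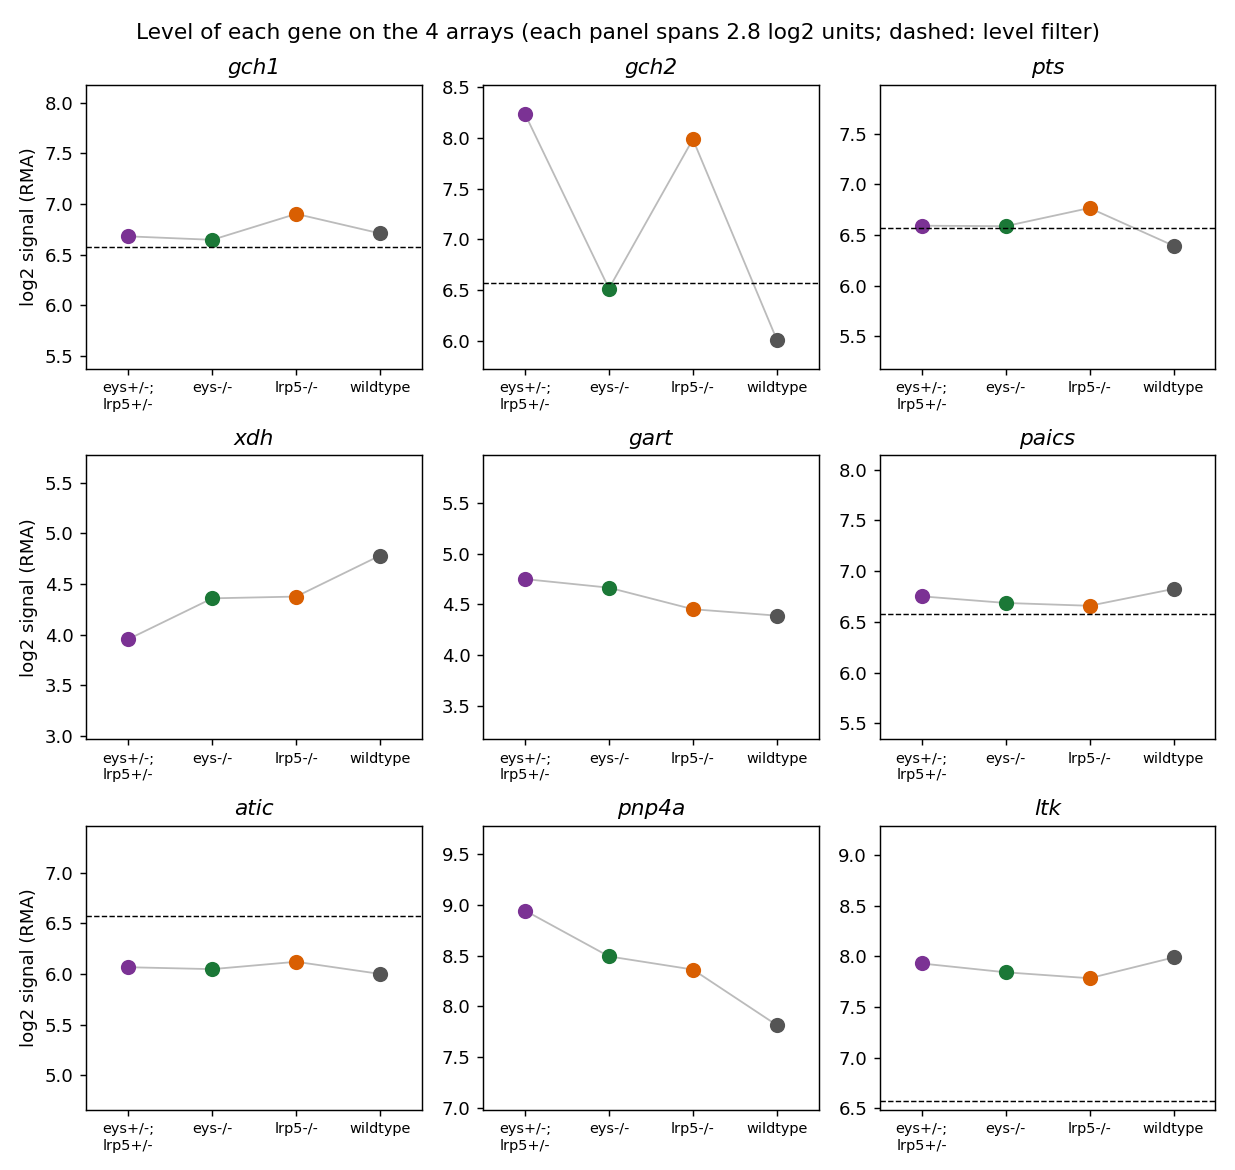
Log2 RMA signal of each of the 9 genes (y axis) on the 4 arrays (x axis, 1 point per genotype, so there are no error bars). Every panel spans the same number of log2 units and the dashed line is the level filter at 6.57. The gch2 points of the double heterozygote and lrp5-/- stand far above those of eys-/- and wildtype, the pnp4a points run down to wildtype, and ltk, paics, gch1 and atic are nearly flat.

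The pteridine branch begins with GTP cyclohydrolase, which zebrafish encode in gch1 and gch2. In zebrafish gch2 is a marker of xanthophores and of pigment cell precursors. Its probe set read 8.24 in double heterozygote eyes, 6.51 in eys-/- eyes, 7.99 in lrp5-/- eyes and 6.01 in wildtype eyes. The arrays thus formed a high pair, the double heterozygote and lrp5-/-, and a low pair, eys-/- and wildtype. The readings of the low pair lay below the level filter but above the median of their arrays, so the size of the fold rests on low readings that are not shown to be above background. Where both arrays of a pair had to reach the filter, gch2 was not called against wildtype or eys-/-.

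Against wildtype, gch2 differed by 2.23 in the double heterozygote, the 10th highest of 10434 measured genes, and 0.115% of measured genes differed at least as far in either direction. In lrp5-/- the gch2 difference was 1.98, the 5th highest of 10426, with 0.0671% of measured genes at least as far from 0. In eys-/- the difference of gch2 was 0.505 and did not count, because neither array reached the filter. Set against eys-/- in place of wildtype, gch2 was called higher in the double heterozygote by 1.72 (3.30-fold) and in lrp5-/- by 1.47 (2.77-fold). Between the double heterozygote and lrp5-/- the difference was 0.25 (1.19-fold), and 19.7% of measured genes differed at least as far, so these neighbours in the order are not separated by more than many other genes are. In whole eyes, more cells of a type and more RNA per cell cannot be told apart.

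The paralogue gch1, which serves tetrahydrobiopterin synthesis in aminergic neurons, read 6.68 in double heterozygote eyes, 6.65 in eys-/- eyes, 6.90 in lrp5-/- eyes and 6.71 in wildtype eyes. Its range over the 4 arrays was 0.26, against 2.23 for gch2, and its differences from wildtype were -0.03 in the double heterozygote, -0.06 in eys-/- and 0.19 in lrp5-/-. The second gch1 probe set, at 4.12, 4.08, 4.24 and 4.21 in the same order of genotypes, stayed below the median of every array. Both probe sets of gch1 were highest in lrp5-/- and lowest in eys-/-, with spans of 0.26 and 0.16.

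The next enzyme of the pathway, 6-pyruvoyltetrahydropterin synthase, is encoded by pts. The pts probe set read 6.59 in double heterozygote eyes, 6.59 in eys-/- eyes, 6.77 in lrp5-/- eyes and 6.40 in wildtype eyes. Wildtype was thus lowest and lrp5-/- highest, with differences from wildtype of 0.20 in the double heterozygote, 0.19 in eys-/- and 0.37 in lrp5-/-. In lrp5-/-, 10.5% of measured genes differed from wildtype at least as far as pts. The pts probe set passed the level filter narrowly on 3 arrays and missed it in wildtype, so its place above wildtype was fixed by the filter.

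Xanthine dehydrogenase, encoded by xdh, oxidises purines towards uric acid and is a xanthophore gene in zebrafish. Its probe set read 3.96 in double heterozygote eyes, 4.36 in eys-/- eyes, 4.38 in lrp5-/- eyes and 4.78 in wildtype eyes. These readings were below the median of every array and are not shown to be above background. The order was the reverse of that of gch2 and pnp4a at its ends, with wildtype highest and the double heterozygote lowest, at a difference of -0.83 that does not count as measured.

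The purine ring is built by a chain of enzymes in which gart acts at early steps, paics at middle steps and atic at the last steps to inosine monophosphate. The level of paics was 6.75 in double heterozygote eyes, 6.69 in eys-/- eyes, 6.66 in lrp5-/- eyes and 6.82 in wildtype eyes. Its range of 0.17 was narrower than the median range of 0.28 over the 10743 genes that reached the filter on any array, and wildtype was the highest of the 4. The differences of paics from wildtype, -0.07, -0.14 and -0.17 for the double heterozygote, eys-/- and lrp5-/-, were all inside the yardstick.

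For atic the readings were 6.07 in double heterozygote eyes, 6.05 in eys-/- eyes, 6.12 in lrp5-/- eyes and 6.001 in wildtype eyes. With a range of 0.12 it was the flattest of the 9 genes, at a level above the median of each array but below the filter. For gart they were 4.75 in double heterozygote eyes, 4.66 in eys-/- eyes, 4.45 in lrp5-/- eyes and 4.39 in wildtype eyes. These gart readings were below the median of every array and are not shown to be above background.

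Purine nucleoside phosphorylase, of which pnp4a encodes a form, splits guanosine to guanine, and in zebrafish pnp4a is an early marker of iridophores. Its probe set read 8.94 in double heterozygote eyes, 8.49 in eys-/- eyes, 8.36 in lrp5-/- eyes and 7.81 in wildtype eyes, above the filter on every array. Wildtype was lowest, the homozygotes lay close together and the double heterozygote was highest. The difference of pnp4a from wildtype was 1.13 in the double heterozygote, 0.68 (1.60-fold) in eys-/- and 0.55 (1.46-fold) in lrp5-/-.

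These differences ranked 93rd, 101st and 246th from the highest, and 1.21%, 2.01% and 3.73% of measured genes were at least as far from 0. The 3 comparisons share the wildtype array, so they are not separate observations of a low wildtype reading. Without wildtype as the base, the double heterozygote differed in pnp4a by 0.45 from eys-/- and by 0.58 from lrp5-/-, under 2-fold in both. The homozygotes differed by -0.13 (lrp5-/- minus eys-/-), inside the yardstick of 0.22 for that pair. With an average of all 3 remaining arrays as the base, pnp4a differed by 0.72 in the double heterozygote, by 0.12 in eys-/- and by -0.05 in lrp5-/-, so under that base it was not called and its sign in lrp5-/- turned.

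The receptor tyrosine kinase encoded by ltk is needed for zebrafish iridophores to form. Its level was 7.93 in double heterozygote eyes, 7.84 in eys-/- eyes, 7.78 in lrp5-/- eyes and 7.99 in wildtype eyes. Here wildtype was highest, and the differences from it were -0.06 in the double heterozygote, -0.15 in eys-/- and -0.20 in lrp5-/-. The iridophore genes ltk and pnp4a thus stood in different orders over the 4 arrays, with ranges of 0.20 and 1.13.

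**Figure D2:**
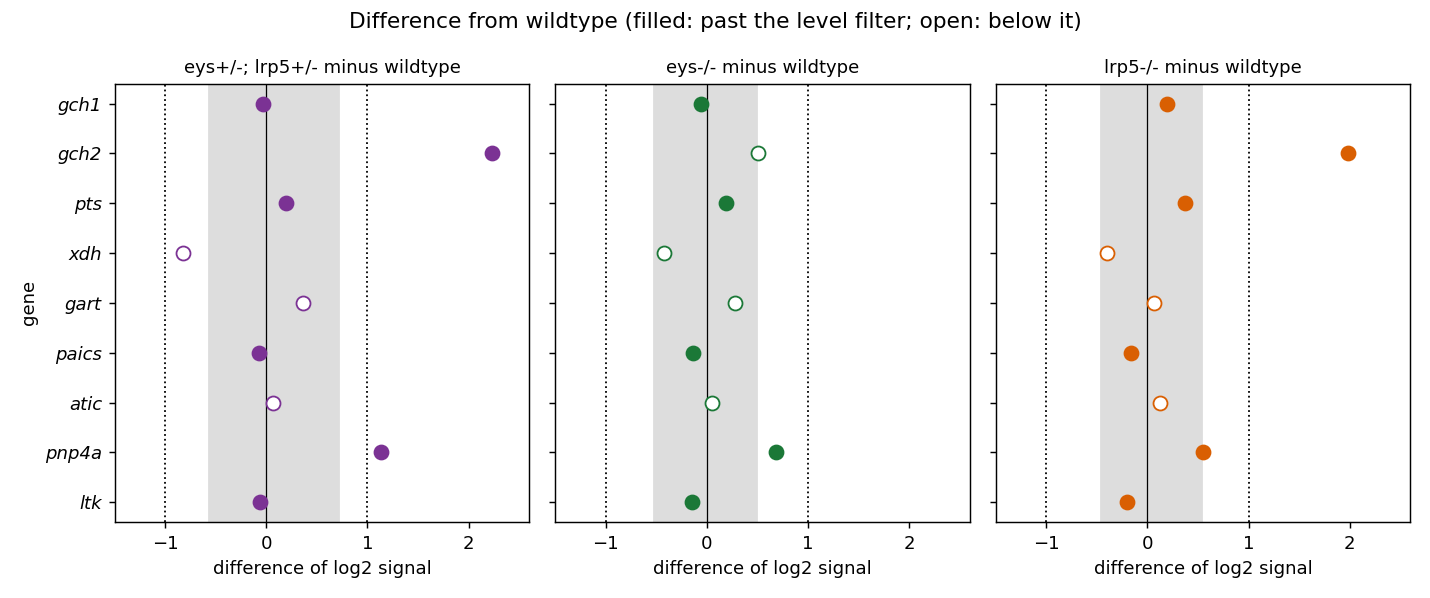
Difference of log2 signal from wildtype (x axis) for each of the 9 genes (y axis) in the double heterozygote, eys-/- and lrp5-/-, 1 pair of arrays per point and no error bars. Filled points passed the level filter and open points did not, the grey band leaves out the most extreme 2.5% of measured genes on each side, and the dotted lines mark 2-fold. Beyond the dotted line on the higher side lie gch2 at 2.23 and pnp4a at 1.13 in the double heterozygote and gch2 at 1.98 in lrp5-/-.

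Counted over the 9 genes, 6 were measured in the double heterozygote against wildtype and 2 of them were called, both higher, where 1.72% of all measured genes were called. In eys-/- against wildtype 5 were measured and 0 called, where 0.632% of all measured genes were called. In lrp5-/- against wildtype 6 were measured and 1 was called higher, where 0.671% of all measured genes were called. Among the measured members, gch2 and pts passed the filter through the arrays on which they are high. The genes were also chosen with these contrasts known, so nothing is read from the counts. The median difference of the measured members was 0.08 in the double heterozygote, -0.06 in eys-/- and 0.28 in lrp5-/-. Medians over all measured genes were 0.0016, -0.014 and -0.00014. The members' medians cover different genes, because gch2 is measured in the double heterozygote and lrp5-/- but not in eys-/-. Over all 9 genes, those below the filter included, the medians were 0.07, 0.05 and 0.12, so nothing is read from these medians either.

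Among the mutants, 1 of 6 measured members, gch2, was called in the double heterozygote against eys-/-, where 2.18% of all measured genes were called. The same gene was called in lrp5-/- against eys-/-, where 1.43% of all were called. In the double heterozygote against lrp5-/-, 0 of 6 were called, where 0.59% of all were called. The range over the 4 arrays placed gch2 38th and pnp4a 284th from the widest of 10743 genes, while pts was 3574th, gch1 6078th, ltk 7491st and paics 8611th.

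Besides gch1, gch2, pts and xdh, 9 genes of a list for pteridine synthesis and recycling were on the array. Of these, 4 were measured in each comparison with wildtype, with 0 past 2-fold against it. Over all measured genes, 1.72%, 0.632% and 0.671% were called in the double heterozygote, eys-/- and lrp5-/- against wildtype. With shares this low a short list would often hold 0, so nothing is read from a 0 here or in the lists below. The median differences of the 4 genes were -0.16 in the double heterozygote, 0.02 in eys-/- and -0.06 in lrp5-/-. The sepiapterin reductase gene spra, whose product makes the last step to tetrahydrobiopterin, read 7.20 in the double heterozygote, 7.31 in eys-/-, 7.63 in lrp5-/- and 7.54 in wildtype. The differences of spra from wildtype were -0.34, -0.23 and 0.09. The dehydratase gene pcbd1, which recycles the cofactor, differed from wildtype by -0.01 in the double heterozygote, 0.12 in eys-/- and -0.22 in lrp5-/-, and mocs1, which begins synthesis of the molybdenum cofactor that xanthine dehydrogenase needs, by -0.31, 0.07 and -0.40. The xanthophore gene aox5 was not analysed here.

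Enzymes that use tetrahydrobiopterin were also looked at. Of 9 on the array 3 were measured and 0 were past 2-fold against wildtype, with medians of 0.29 in the double heterozygote, -0.12 in eys-/- and 0.16 in lrp5-/-. The tyrosine hydroxylase gene th read 7.07 in the double heterozygote, 6.66 in eys-/-, 7.09 in lrp5-/- and 6.78 in wildtype. The tryptophan hydroxylase gene tph1a, a gene of serotonin and melatonin synthesis, read 7.99 in the double heterozygote, 7.42 in eys-/-, 7.59 in lrp5-/- and 7.45 in wildtype, a difference of 0.54 for the double heterozygote.

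In the list of purine synthesis from simple precursors, 12 genes besides gart, paics and atic were on the array. In the double heterozygote 9 of them were measured, with a median of 0.13, in eys-/- 9 with a median of -0.01, and in lrp5-/- 8 with a median of -0.05, and 0 were past 2-fold in each. The median in lrp5-/- leaves out adsl, so nothing is read from comparing these medians. The most negative difference in the double heterozygote and in lrp5-/- was that of impdh1b, a form of the enzyme that turns inosine monophosphate towards guanine nucleotides, at 6.67 in the double heterozygote, 7.60 in eys-/-, 7.06 in lrp5-/- and 7.55 in wildtype. The difference of impdh1b from wildtype was -0.88 in the double heterozygote, 0.05 in eys-/- and -0.48 in lrp5-/-, so the arrays that were high in gch2 were the low ones here.

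On the adenine side of the same branch point, adss2, an adenylosuccinate synthase gene, was at 7.70 in the double heterozygote, 7.74 in eys-/-, 7.42 in lrp5-/- and 7.18 in wildtype. Its differences from wildtype were 0.51, 0.56 and 0.23. The guanine branch gene gmps, which makes guanosine monophosphate, read 8.11 in the double heterozygote, 7.97 in eys-/-, 7.99 in lrp5-/- and 7.99 in wildtype, a range of 0.13. The adenylosuccinate lyase gene adsl differed from wildtype by 0.34 in the double heterozygote and 0.42 in eys-/-, and was not measured in lrp5-/- against wildtype. It reached the level filter only in the double heterozygote (6.66) and eys-/- (6.74), so its place above wildtype was fixed by the filter.

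In the list of purine salvage and breakdown, 23 genes besides pnp4a and xdh were on the array and 0 were past 2-fold against wildtype. The median was 0.10 over 14 measured genes in the double heterozygote, -0.06 over 15 in eys-/- and 0.05 over 15 in lrp5-/-. These medians cover different genes, and nothing is read from their comparison. Other forms of purine nucleoside phosphorylase had other orders of the arrays. The pnp5a level was 8.17 in the double heterozygote, 7.55 in eys-/-, 8.25 in lrp5-/- and 7.65 in wildtype, so that, unlike pnp4a, eys-/- was not above wildtype. The pnp5b level was 7.63 in the double heterozygote, 7.34 in eys-/-, 7.96 in lrp5-/- and 7.86 in wildtype, and that of pnp6 was 7.88, 7.73, 7.84 and 7.83 in the same order.

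The pnp4b gene read 3.71, 3.63, 3.46 and 3.60 in that order, below the median of each array. Whether probes of these related genes take up each other's RNA was not tested. Elsewhere in the list, the nucleotidase gene nt5c2b differed from wildtype by 0.76 in the double heterozygote, 0.06 in eys-/- and 0.41 in lrp5-/-. In the same order the adenosine deaminase gene ada differed by -0.40, -0.06 and 0.21, and the AMP deaminase gene ampd3a by 0.05, -0.61 and -0.06. A further AMP deaminase gene, ampd3b, differed by 0.62 in eys-/- and 0.53 in lrp5-/-. It reached the level filter only in eys-/- (6.75) and lrp5-/- (6.65), so its place above wildtype was fixed by the filter.

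Folate enzymes supply carbon units to the steps run by gart and atic. Of 13 such genes on the array 7 were measured in each comparison with wildtype and 0 were past 2-fold in it, with medians of 0.03 in the double heterozygote, 0.16 in eys-/- and 0.07 in lrp5-/-. The mitochondrial gene mthfd2 was lowest in wildtype, at 8.54 in the double heterozygote, 8.36 in eys-/-, 8.49 in lrp5-/- and 7.99 in wildtype. The folate gene aldh1l1 was highest in eys-/-, at 6.89 in the double heterozygote, 7.42 in eys-/-, 6.79 in lrp5-/- and 6.96 in wildtype.

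**Figure D3:**
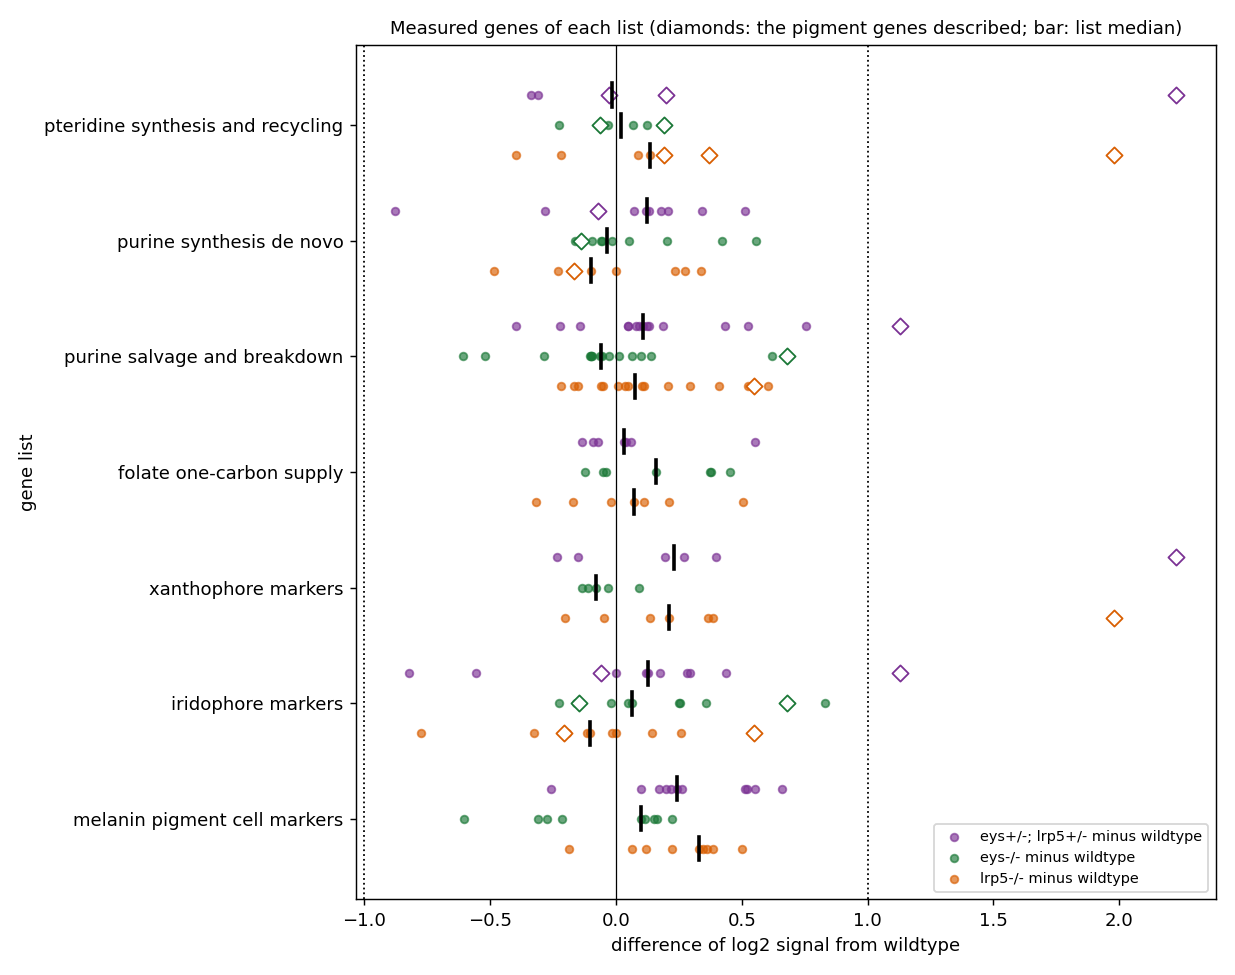
Difference of log2 signal from wildtype (x axis) of each measured gene in 7 gene lists (y axis), in the double heterozygote, eys-/- and lrp5-/-. Dots are genes, open diamonds are those of the 9 pigment genes that were measured, black bars are list medians over all measured genes of the list, and dotted lines mark 2-fold. Past 2-fold lie only gch2, in the pteridine and xanthophore lists, and pnp4a, in the purine salvage and iridophore lists. The melanin medians of 0.24, 0.10 and 0.33 lie above 0, but the first covers more genes than the others.

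Markers of the pigment cells themselves were set beside gch2 and pnp4a. Apart from gch2 and xdh, 11 xanthophore markers were on the array and 0 were past 2-fold against wildtype. Of those, 3 of 5 measured read above wildtype in the double heterozygote (median 0.19) and 1 of 5 in eys-/- (median -0.08). In lrp5-/- 4 of 6 did (median 0.17). The gene measured against wildtype only in lrp5-/- was pax7a, which reached the level filter on that array alone. Its place above wildtype was thus fixed by the filter, and nothing is read from comparing these counts. The receptor gene csf1ra, needed by xanthophores and also expressed in macrophages, read 7.32 in the double heterozygote, 6.84 in eys-/-, 7.30 in lrp5-/- and 6.92 in wildtype. The sugar transporter gene slc2a11b, which acts in xanthophore development, read 7.97 in the double heterozygote, 7.57 in eys-/-, 8.07 in lrp5-/- and 7.70 in wildtype. The mycbp2 gene had 9.14 in the double heterozygote, 8.91 in eys-/-, 9.08 in lrp5-/- and 8.94 in wildtype. These genes thus had the same high pair and low pair as gch2, as did slc2a15b below the level filter, with differences from wildtype of at most 0.40 where gch2 reached 2.23. The share of all genes with this order was not counted, so nothing is read from the number of such genes.

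Other xanthophore genes, pax7a, sox5, scarb1 and gja5b among them, were arranged otherwise. The fate gene pax7a was at 6.18 in the double heterozygote, 6.42 in eys-/-, 6.73 in lrp5-/- and 6.52 in wildtype. In the same order sox5 was at 9.35, 9.47, 9.38 and 9.58, and scarb1 at 6.91, 7.15, 7.01 and 7.05. Both sox5 and scarb1 thus read lower in the double heterozygote and lrp5-/- than in eys-/- and wildtype, the reverse of gch2. Below the level filter, gja5b was lowest in the double heterozygote at 5.72 and highest in wildtype at 6.46. The summed linear signal of the 13 xanthophore markers, gch2 and xdh included, was 2447 in the double heterozygote, 2138 in eys-/-, 2466 in lrp5-/- and 2209 in wildtype. Because gch2 is part of this sum, the sum repeats the gch2 difference and is no separate reading of xanthophores. The part of cell number in the gch2 difference was not tested.

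Apart from ltk and pnp4a, 13 iridophore markers were on the array and 0 were past 2-fold against wildtype. Of 9 measured, 7 read above wildtype in the double heterozygote (median 0.13), 6 in eys-/- (median 0.06) and 2 in lrp5-/- (median -0.10). Among the 9, fhl2a reached the level filter only in wildtype (6.69), so its place below wildtype was fixed by the filter. The ligand gene alkal1, which activates Ltk, read 9.31 in the double heterozygote, 8.71 in eys-/-, 9.13 in lrp5-/- and 8.87 in wildtype. The endothelin receptor gene ednrba read 7.07, 7.20, 6.94 and 6.95 in the same order. The LIM-domain gene fhl2b read 7.02 in the double heterozygote, 7.73 in eys-/-, 7.04 in lrp5-/- and 6.90 in wildtype, with a difference of 0.83 in eys-/-. The mitochondrial membrane gene mpv17, whose loss depletes iridophores in zebrafish, read 6.43 in the double heterozygote, 7.61 in eys-/-, 6.48 in lrp5-/- and 7.25 in wildtype, differences from wildtype of -0.82, 0.36 and -0.77. Against eys-/- mpv17 was called lower, by -1.18 in the double heterozygote and by -1.13 in lrp5-/-. Both low mpv17 readings lay below the level filter and are not shown to be above background, so the size of these differences rests on them. Their place below wildtype and eys-/- was likewise fixed by the filter. The mpv17 readings were therefore low on the arrays that were high in gch2. The summed linear signal of the 15 iridophore markers, ltk and pnp4a included, was 4799 in the double heterozygote, 4480 in eys-/-, 3825 in lrp5-/- and 3976 in wildtype. Because pnp4a is part of this sum, the sum is not separate from the pnp4a difference. The brightest of the 15, gpnmb, read 10.82, 10.79, 10.34 and 10.53 in the same order. The part of cell number in the pnp4a difference was not tested. The iridophore gene tfec was not analysed here.

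Melanin pigment cell markers lay above wildtype in 10 of 11 measured genes in the double heterozygote (median 0.24). They did so in 5 of 9 in eys-/- (median 0.10) and in 8 of 9 in lrp5-/- (median 0.33), with 0 past 2-fold against wildtype. The genes slc24a5 (7.02) and gpr143 (6.61) reached the level filter only in the double heterozygote. Their place above wildtype was thus fixed by the filter, and they were not measured in either homozygote against wildtype. The counts and medians therefore cover different genes, and nothing is read from their comparison. The summed linear signal of the 12 melanin markers on the array was 5829 in the double heterozygote, 5075 in eys-/-, 6012 in lrp5-/- and 4810 in wildtype. Of these, tyrp1b, a gene of melanin synthesis, read 10.40 in the double heterozygote, 9.95 in eys-/-, 10.35 in lrp5-/- and 9.85 in wildtype. The tyrp1b readings had the same high pair and low pair as gch2 at differences from wildtype of 0.55, 0.10 and 0.50. So did tyr, pmela, pmelb, slc24a5, slc45a2, kita and gpr143, but dct, oca2, mitfa and trpm1b did not. Some gaps between the pairs were small, as in slc45a2, at 6.69 in lrp5-/- and 6.62 in wildtype. The share of all genes with this order was not counted, so nothing is read from the number of such genes. The highest reading was that of wildtype in trpm1b (8.84) and that of eys-/- in oca2 (7.47). The part of these markers in the gch2 difference was not tested.

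Lists for other cells of the eye had medians of 0.07, 0.07 and 0.19 for retinal pigment epithelium in the double heterozygote, eys-/- and lrp5-/-, of 0.06, -0.02 and 0.04 for rods and of 0.12, 0.02 and 0.02 for cones. Those for Muller glia were 0.15, -0.06 and 0.06, for lens 0.05, -0.03 and 0.04, and for macrophages 0.38, -0.23 and -0.29 over 3 or 4 measured genes. The macrophage gene coro1a reached the level filter only in the double heterozygote (6.67), so its place above wildtype was fixed by the filter. The macrophage medians thus cover different genes, and nothing is read from their comparison. Past 2-fold against wildtype among them were the rod factor nr2e3, by 1.91, and the cone channel gene cnga3a, by 1.07, both in the double heterozygote. In lrp5-/- nr2e3 differed from wildtype by 0.99, just under 2-fold, and cnga3a by 0.78. In eys-/- nr2e3 read 8.30, against 7.69 in wildtype, and cnga3a read 9.19, against 9.48 in wildtype. Between the mutants, nr2e3 (1.30) and cnga3a (1.37) were called higher in the double heterozygote against eys-/-, and in lrp5-/- against eys-/- cnga3a was called higher (1.07) and the red opsin gene opn1lw1 lower (-1.21), an uncertain value because a close copy of this gene can share its probes. The rod gene gnat1, at 12.43 to 12.56, and the cone gene gnat2, at 12.44 to 12.56, read nearly the same on all 4 arrays and are defining genes of the labelled tissue.

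The genes whose pattern over the 4 arrays lay nearest to that of gch2 and pnp4a were named by the largest gap between log2 values centred on each gene's own mean, over 10058 genes without clone-style names. Nearest to gch2 was gadd45ga, with a largest gap of 0.39, at 8.27 in the double heterozygote, 6.40 in eys-/-, 8.48 in lrp5-/- and 6.004 in wildtype. It was followed by npas4a at a gap of 0.40, znfl1g at 0.42, cdkn1a at 0.47 and dsg2.1 at 0.50. In eys-/- and wildtype, gadd45ga, npas4a, znfl1g and cdkn1a read below the level filter, and cdkn1a did so in lrp5-/- too. Those low readings are not shown to be above background. Of these nearest genes, only dsg2.1 was above the filter on every array. Among the other pigment genes pnp4a was nearest to gch2, at rank 146 with a gap of 0.84. In pnp4a lrp5-/- was not above eys-/-, unlike in gch2. Next, pts was at rank 1222 and gch1 at rank 3731.

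Nearest to pnp4a were dok1a at a gap of 0.06, angptl7 at 0.08, niban1a at 0.09, phkg1a at 0.10 and camkk1a at 0.12. The closest, dok1a, read 6.93 in the double heterozygote, 6.37 in eys-/-, 6.28 in lrp5-/- and 5.74 in wildtype. Both dok1a and angptl7 passed the level filter only in the double heterozygote, and camkk1a was below it in lrp5-/- and wildtype. The readings under the filter are not shown to be above background. Of the other pigment genes that passed the filter on any array, pts came closest to pnp4a at rank 2283 and gch2 was at rank 9390. The values were centred but not scaled, so a gap reflects the range of a gene as well as its order over the arrays. That range was 2.23 for gch2, 1.13 for pnp4a and 0.37 for pts. The ranks describe 4 arrays and are no measure of a shared cause.

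**Figure D4:**
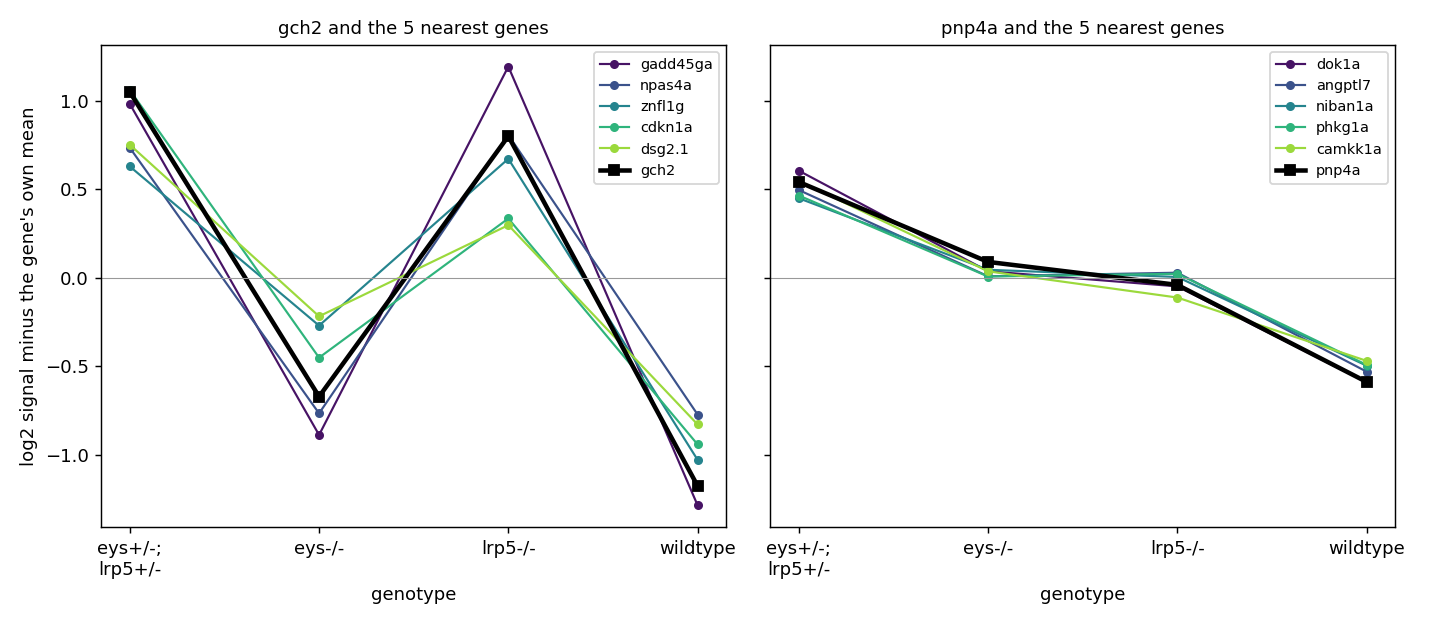
Log2 signal minus the gene's own mean over the 4 arrays (y axis) by genotype (x axis, 1 array each), for gch2 (left, black squares) and pnp4a (right, black squares) with the 5 nearest genes of each as coloured lines. The gch2 group is high in the double heterozygote and lrp5-/- and low in eys-/- and wildtype, with gaps up to 0.50. The pnp4a group is highest in the double heterozygote and lowest in wildtype, with the homozygotes between them and gaps up to 0.12. Several low readings in both groups lie below the level filter, which the centred values do not show.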

How the data were processed

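RNA of whole eyes was measured on 4 arrays, 1 per genotype. The authors deposited a table of log2 signals for 75212 probe sets. RMA and Transcriptome Analysis Console 4.0 are named per the submitters' processing notes. RMA equalises the distributions of arrays, so a shift shared by most genes would be removed. That the scale is log2 follows from the range of the values, which are not centred by gene.

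Annotation dated 2013 names 20806 probe sets with 1 symbol and 855 with several, which were not used, and 53551 are unnamed here. RefSeq's table (assembly GRCz12tu) served to match gene lists. A gene with several probe sets was represented by the brightest on average, and differences are those of 2 arrays, computed with pandas 2.3.3. The call rule was tried on simulated data, with changes planted only in genes whose mean lay above that of each of the 9 genes. That trial therefore does not cover readings near the level filter, such as those of gch2. Precision is limited by the number of arrays. The 9 genes and the 14 gene lists were chosen with earlier results of these data known. Named are all 9 genes, every list gene past 2-fold against wildtype, from the lists up to 4 genes with the largest difference from wildtype (fewer or none for several lists), and the 5 nearest patterns. Other list genes were named for their known role, for a difference between mutants or for their order over the arrays, after their values were seen. Alternatives changed the filter, the normalization, the probe set, the threshold and the array set against. No sequences of these genes were used here.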

Additional observations from a re-analysis of the deposited data

How the results depend on the processing

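No paired analysis was possible because each genotype has 1 array, and for the same reason no array could be left out of a group. With both arrays of a pair required to reach the level filter, gch2 dropped out of every comparison with wildtype or eys-/-. Members called were 1 (pnp4a) in the double heterozygote and 0 in lrp5-/- against wildtype, 0 in the double heterozygote against eys-/- and 0 in lrp5-/- against eys-/-, because its low readings lie under the filter. With an average of the remaining 3 arrays as the base, 1 member (gch2, at 1.40) was called in the double heterozygote, gch2 was still called in lrp5-/- at 1.07, and gch2 in eys-/- stood at -0.90. At 1.5-fold, 1 member (pnp4a) was called in eys-/-. Centring, trend removal, repeated quantile normalization, the mean of all probe sets and no level filter left each count of called members within 1.5 times. Of 54 single differences under trend removal 6 moved by more than the robust SD, all of xdh and gart, and 10 of 27 did with the 3-array average as base, where 7 changed sign.

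Counts over all genes moved more. At 1.5-fold they were 643, 342 and 340 for the double heterozygote, eys-/- and lrp5-/- against wildtype (179, 66 and 70 at 2-fold), 797 and 298 for the double heterozygote against eys-/- and lrp5-/- (228 and 61) and 568 for lrp5-/- against eys-/- (149). With no filter they were 161 for eys-/- and 126 for lrp5-/- against wildtype, 140 for the double heterozygote against lrp5-/- and 258 for lrp5-/- against eys-/-. With both arrays at the filter these were 40, 41, 32 and 84. With the 3-array average as base, 104 genes were called in the double heterozygote and 33 in lrp5-/-. In eys-/- 34 of 96 calls were then higher, against 34 of 66 with wildtype as base. The cause was not tested beyond the numbers of genes that each setting admits.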
